A study of Homo sapiens with 12 samples.

Results

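DNA damage repair genes were followed while BT474 cells became resistant to lapatinib. The BT474 line is established from a human breast cancer and is HER2-positive. The set held 42 genes of the 26485 in the table. They were chosen by name for their roles in homologous recombination (17 genes), the Fanconi pathway (7), checkpoint signalling (5), mismatch repair (2), end joining (4), base excision repair with the poly-ADP-ribose polymerases (4) and nucleotide excision repair (3). Wild-type BT474 cells were kept in 1 µM lapatinib, which blocks the kinase activity of HER2 and EGFR, and 4 groups of 3 mRNA libraries were sequenced. Control cells were taken at day 0, drug-tolerant persister cells (DTP) at day 9, drug-tolerant expanded persister cells (DTEP) at month 6 and long-term resistant cells (LR) at month 9. The Control libraries carry the same lapatinib label as the others and were read as untreated because they are titled Control at day 0. The libraries of a condition came from plates kept side by side and are elsewhere called technical replicates, so n counts libraries. Each SE and p-value rests on the spread within groups pooled over all 12 libraries. The widely spread late libraries therefore also enter the comparison of DTP with Control.

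Homologous recombination copies the sister chromatid to mend a broken chromosome and works mainly in S and G2 phase, when that copy exists. The Fanconi proteins unhook crosslinked strands at stalled replication forks and hand the break to recombination. End joining ligates breaks without a template at any stage of the cell cycle, and excision repair removes single damaged bases or bulky lesions, also in resting cells. Many recombination, Fanconi and checkpoint genes are known targets of the E2F transcription factors, which drive genes of S phase. BT474 growth depends on HER2 signalling, and HER2 inhibitors are known to arrest it.

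Libraries held between 16383363 and 25030482 assigned reads, and 3 reads corresponded to 0.124 to 0.173 normalised read counts, the deposited unit (CPM corrected by TMM factors). Changes are differences of group means of log2(value + 1), which understate those of low genes. All 42 members were above the filter on low values. Luminal epithelial markers were present in every library, with a summed level between 10520 and 11263 in Control, between 12878 and 15300 in DTP, between 4240 and 6171 in DTEP, and between 3991 and 5450 in LR. Single markers moved apart, since ERBB2, which encodes HER2, lay between 6356 and 6833 in Control and between 1244 and 2103 in the 6 late libraries. CDH1, the epithelial cadherin, lay between 1094 and 1146 in Control and between 60.6 and 150.0 in the late libraries, whereas GATA3, a luminal transcription factor, lay between 183 and 198 in Control and between 910 and 1572 there. Their part in the results was not tested. Fibroblast markers summed to at most 130 and leukocyte and endothelial markers to at most 8.66. A total of 16 genes had no read in any of the 6 Control and DTP libraries and at least 100 reads in each of the 6 DTEP and LR libraries, and 0 genes had the opposite pattern. Whether the late libraries derive from the Control culture alone was not tested. DTEP replicate 3 stood apart from its group, because its values correlated across genes at 0.934 and 0.962 with the other DTEP libraries and at 0.971 to 0.986 with the LR libraries. LR replicate 2 also stood apart, being the lowest LR library in 35 of 42 members. For most named changes that turn on either library, values without it are given beside them.

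Proliferation markers moved with many of the repair genes. The summed level of 16 markers lay between 3690 and 3726 in Control and between 776 and 803 in DTP. It lay between 2830 and 4704 in the DTEP libraries and was 1592, 1038 and 2386 in LR replicates 1, 2 and 3. MKI67 differed from the sum, at 221 to 230 in Control, at 463, 604 and 622 in DTEP and at 255, 207 and 413 in LR. In LR against Control the fitted change was negative in 15 markers and positive in 1. For 6 E2F and FOXM1 factors the summed level lay between 474 and 493 in Control and between 15.6 and 17.3 in DTP, and it lay between 593 and 1185 for DTEP and between 116 and 450 for LR. The part of these levels in the changes of the repair genes was not tested. In bulk RNA, fewer cells that express a gene and less RNA per cell cannot be told apart.

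**Figure D1:**
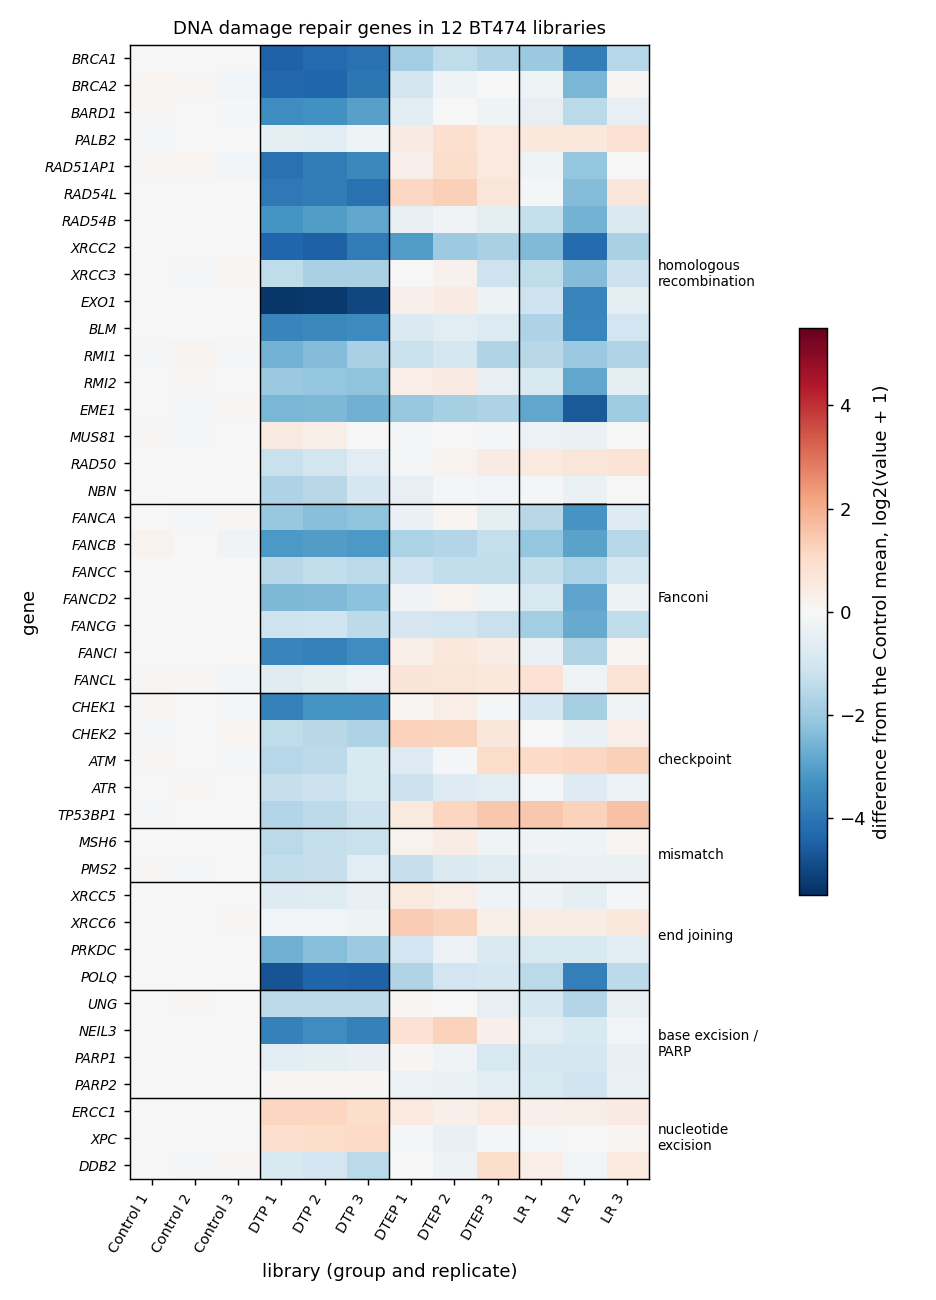
Difference of each of the 42 repair genes from its Control mean, on the log2(value + 1) scale, in 12 libraries (columns) with genes grouped by role (rows). Blue marks levels below Control and red levels above; the 3 DTP columns are mostly blue, with EXO1 the darkest at a fitted change of -5.21, and LR replicate 2 is bluer than the other LR libraries.

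The DTP state was marked by lower levels of most members, with the largest median fall in recombination. Members were chosen with earlier results of these data known, so their shares describe this list only. Of 42 members, 20 were lower in DTP than in Control at an adjusted p below 0.05 (limma) and an absolute log2 change above 2, the call used below, against 3.90% of all genes tested. None was called higher, against 1.01% of all genes. By the adjusted p alone, 35 members were lower (28.8% of all genes) and 2 were higher (25.2% of all genes), and 5 did not pass. The median log2 change of the members was -1.60, and that of all genes tested was -0.01. The DTP and Control libraries did not overlap in 38 members that were lower in DTP (39.6% of all genes) and in 3 that were higher (37.7%).

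The recombination genes fell furthest, with 12 of 17 called lower and a median log2 change of -3.09. The 16 proliferation markers were alike, with 13 called lower (3.90% of all genes tested) and a median of -3.06. EXO1, an exonuclease that resects broken ends, lies on chromosome 1 at chr1:241847986-241889939 (GRCh38.p14). Its level was 106, 105 and 105 normalised read counts in the Control libraries and 1.62, 1.73 and 2.30 in the DTP libraries. The DTP mean was 1.78% of the Control mean, and the log2 change was -5.21 ± 0.58 (SE, n = 3 per group; adjusted p = 2.5e-05, limma). Every DTP library was far below every Control library, and EXO1 had the largest fitted fall of the 42 members on the log2(value + 1) scale.

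The breast cancer susceptibility genes BRCA1 and BRCA2 both fell strongly at this step. BRCA1, which directs end resection together with BARD1, was at 116, 116 and 117 in Control and at 4.44, 5.13 and 5.87 in DTP, a log2 change of -4.26 ± 0.43 (adjusted p = 1.26e-05, limma). BRCA2, a mediator of strand invasion, was at 41.5, 40.0 and 35.0 in Control and at 0.992, 0.938 and 1.50 in DTP, a log2 change of -4.22 ± 0.53 (adjusted p = 5.73e-05). The groups did not overlap in either gene. PALB2, the protein that bridges BRCA1 and BRCA2, went from a mean of 35.2 ± 1.08 (SD, n = 3) in Control to 24.4, 23.4 and 29.3 in DTP, 73.0% of Control. The bridging partner thus kept most of its message where BRCA2 kept 2.94%.

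Other recombination genes that act in strand exchange fell in the same range. XRCC2, which assists strand invasion, was at 62.1, 61.0 and 59.6 in Control and at 2.04, 1.73 and 3.28 in DTP, a log2 change of -4.24 ± 0.51 (adjusted p = 4.49e-05, limma). RAD54L, a motor protein that drives strand exchange, was at 29.0, 29.7 and 29.1 in Control and at 0.992, 1.09 and 0.749 in DTP, a log2 change of -3.97 ± 0.55 (adjusted p = 0.000117). In both genes the DTP libraries lay wholly below the Control libraries. RAD51AP1, which stimulates strand pairing, was at 4.68% of Control in DTP, RAD54B, a relative of RAD54L, at 10.1% and BARD1 at 9.51%. XRCC3, which also assists strand invasion, kept 30.4%.

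Genes that act late in recombination were lower to different degrees. BLM, the helicase that dissolves crossed strands, was at 6.43% of Control in DTP, and its cofactors RMI1 and RMI2 were at 20.0% and 21.9%. EME1, the regulatory subunit of a structure-specific nuclease, was at 151, 147 and 159 in Control and at 26.1, 27.0 and 23.7 in DTP. Its catalytic partner MUS81 was at 46.5, 42.7 and 45.9 in Control and at 63.7, 56.6 and 45.5 in DTP, a log2 change of 0.28 ± 0.15 that did not pass the test (adjusted p = 0.139, limma). One subunit of this nuclease was called lower, and for the other the DTP and Control libraries overlapped. RAD50 and NBN, which sense breaks as a complex with a nuclease, were at 52.7% and 39.0% of Control, both past the adjusted p and neither called.

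Promoter sequence was examined because the genes that fell are often described as E2F targets. RefSeq promoters of 300 bases (250 before a listed start and 50 after it, GRCh38.p14) were matched for 36 of 42 members, and RAD54B, RMI2, NBN, FANCI, XRCC5 and PRKDC were not matched. A listed start need not be the outermost start of the gene. The stretches shown for EXO1, RMI1 and UNG lie inside the gene coordinates. The 8-letter words TTTCCCGC, TTTGGCGC, TTTCGCGC and TTTGCCGC, common forms of the E2F site, were searched on both strands. At least 1 word was present in 11 of the 36 members (30.6%) and in 3.99% of all 27305 genes with a promoter. Among members called lower in DTP, 5 of 16 (31.2%) held a word, and among the other members 6 of 20 (30%) did, so the shares were nearly equal. The CCAAT box (CCAAT) was present in 55.6% of members and 39.7% of all genes, and the words TTTGAA and TTTAAA of the cell cycle homology region (CHR) in 25% and 27.9%; neither overlaps an E2F word. Stretches around the E2F word follow for members that fell in DTP (EXO1, FANCD2, FANCA, RMI1 and UNG) and for XPC, which rose, so that the same kind of word can be seen in genes that moved in opposite directions. Capitals mark the word, each stretch reads in the direction of its gene, and a match is a description of these letters only.
EXO1 (chr1:241848168-241848215, plus strand): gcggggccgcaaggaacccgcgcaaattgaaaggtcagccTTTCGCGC
FANCD2 (chr3:10026395-10026442, plus strand): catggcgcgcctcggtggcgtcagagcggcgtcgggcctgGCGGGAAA
FANCA (chr16:89816780-89816859, minus strand): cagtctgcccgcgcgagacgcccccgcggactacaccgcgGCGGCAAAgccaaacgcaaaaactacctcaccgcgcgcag
RMI1 (chr9:83980733-83980804, plus strand): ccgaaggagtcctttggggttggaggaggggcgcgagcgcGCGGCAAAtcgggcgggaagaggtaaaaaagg
UNG (chr12:109098069-109098148, plus strand): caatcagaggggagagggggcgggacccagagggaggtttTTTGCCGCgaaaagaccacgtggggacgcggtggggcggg
XPC (chr3:14178772-14178851, minus strand): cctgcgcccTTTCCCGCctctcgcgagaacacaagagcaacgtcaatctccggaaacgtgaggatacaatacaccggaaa

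In the Fanconi pathway 4 of 7 genes were called lower in DTP (3.90% of all genes tested), with a median log2 change of -2.21. FANCD2 and FANCI form the clamp that is loaded at a crosslink. FANCD2 was at 113, 111 and 113 in Control and at 19.6, 19.8 and 23.0 in DTP, and FANCI was at 172, 167 and 170 in Control and at 12.8, 11.8 and 15.1 in DTP. The core complex that modifies this clamp was uneven. Its subunits FANCB, FANCA, FANCC and FANCG were at 6.28%, 20.7%, 34.7% and 42.6% of Control. FANCL, its ubiquitin ligase, was at 22.4, 22.6 and 19.5 in Control and at 13.2, 14.8 and 17.2 in DTP, and it was the 1 Fanconi member that did not pass the adjusted p.

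All 5 checkpoint genes passed the adjusted p with lower levels in DTP (28.8% of all genes tested), and 1 of them was called (3.90%). CHEK1, the kinase that ATR activates at stalled forks, was at 69.5, 68.1 and 61.0 in Control and at 4.07, 5.82 and 5.99 in DTP, 8.0% of Control. CHEK2, the kinase that ATM activates at breaks, kept 31.8%. The apical kinases ATM and ATR kept 41.5% and 46.5%, and TP53BP1, a chromatin reader that restrains resection, kept 37.1%. The effector kinase of the fork response thus kept a smaller share of its Control level than ATR, the kinase that activates it. Both mismatch genes were also past the adjusted p, MSH6, which recognises mispaired bases, at 39.5% of Control and PMS2, a subunit of the downstream nuclease, at 47.6%.

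Of the 4 end joining genes, 2 were called lower in DTP (3.90% of all genes tested), POLQ and PRKDC. POLQ, the polymerase of the error-prone branch that anneals short homologies, was at 123, 126 and 124 in Control and at 3.60, 4.94 and 4.66 in DTP. Its log2 change was -4.54 ± 0.48 (adjusted p = 1.92e-05, limma), the largest fitted fall after EXO1. PRKDC, the catalytic subunit of the kinase of classical end joining, was at 872, 896 and 846 in Control and at 139, 169 and 216 in DTP, and was called lower. The Ku subunits XRCC5 and XRCC6, which bind broken ends first, were at 65.6% and 87.7% of Control, and XRCC6 did not pass the adjusted p. XRCC5, PRKDC and POLQ therefore fell by the adjusted p, with the Ku genes at the small end of the range.

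Of the 4 genes of base excision and the PARP family, NEIL3 and UNG were lower in DTP by the adjusted p (28.8% of all genes tested). NEIL3, a glycosylase active on replicating DNA, was at 12.6, 13.3 and 12.8 in Control and had 1, 6 and 1 reads in the DTP libraries. UNG, which removes uracil, was at 140, 146 and 138 in Control and at 51.5, 52.0 and 51.6 in DTP, 36.6% of Control. PARP1, the main sensor of strand nicks, was at 71.1% of Control and did not pass the adjusted p. PARP2, its relative, was at 101, 102 and 104 in Control and at 107, 110 and 108 in DTP, a log2 change of 0.08 ± 0.16 (adjusted p = 0.687, limma). The PARP2 libraries of the groups did not overlap, although the difference was small beside the spread estimated over all libraries.

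The 2 members that rose in DTP by the adjusted p (25.2% of all genes tested) both belong to nucleotide excision repair. ERCC1, a subunit of the nuclease that cuts beside bulky lesions, was at 51.4, 52.2 and 53.8 in Control and at 119, 119 and 103 in DTP. The DTP mean was 2.16 times the Control mean, a log2 change of 1.09 ± 0.12 (adjusted p = 2.31e-05, limma). XPC, which recognises lesions across the genome, was at 64.5, 64.8 and 65.9 in Control and at 123, 130 and 134 in DTP, a log2 change of 0.98 ± 0.12 (adjusted p = 6.29e-05). Neither gene overlapped between the groups, and neither reached the log2 change of 2 needed for a call. DDB2, the third member and a damage sensor for ultraviolet lesions, was at 30.2, 28.2 and 31.8 in Control and at 16.4, 13.8 and 10.2 in DTP, lower by the adjusted p.

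**Figure D2:**
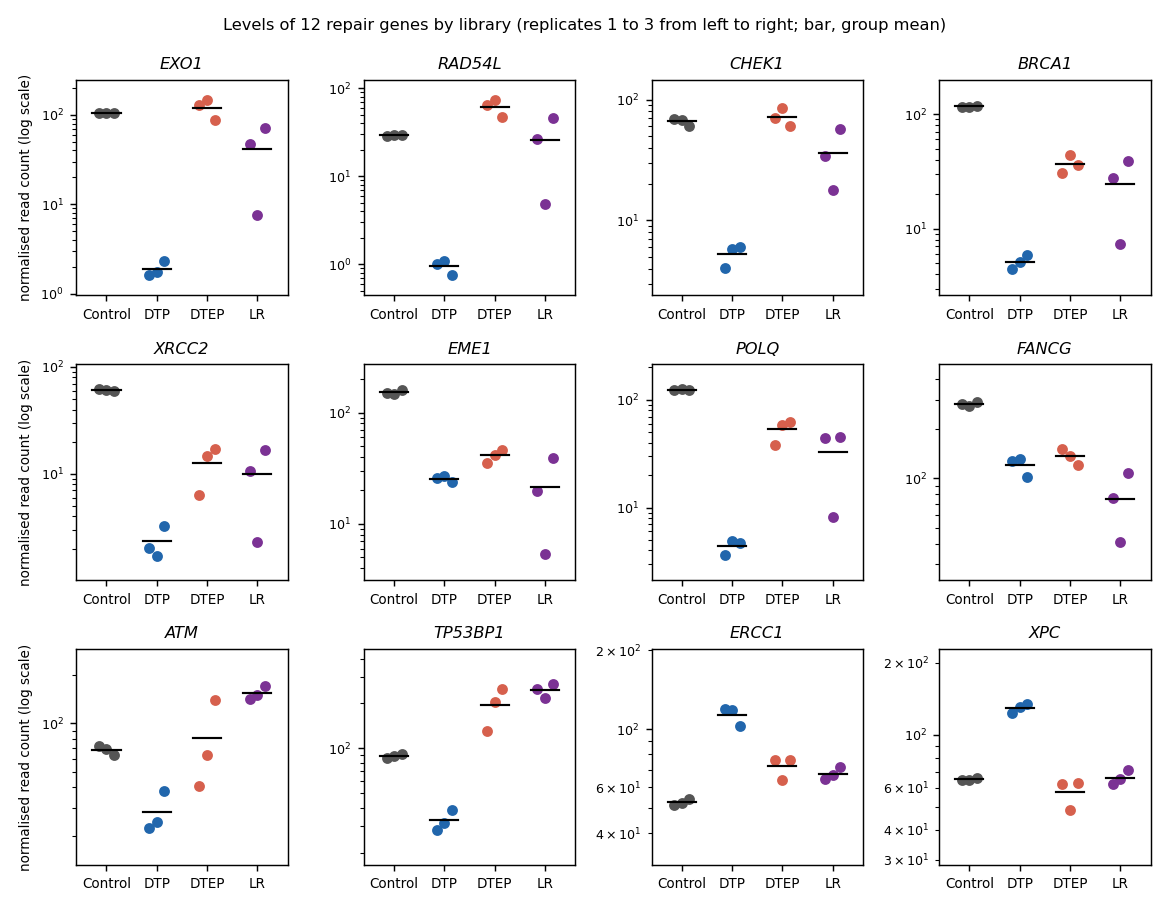
Normalised read counts of 12 repair genes (log axis) in each library of the 4 groups; points are libraries and the bar is the group mean. EXO1, RAD54L, CHEK1, BRCA1, XRCC2, EME1, POLQ and FANCG are lower in all 3 DTP libraries than in Control, ERCC1 and XPC are higher, and TP53BP1 is above Control in all 6 DTEP and LR libraries.

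Most members were higher in DTEP than in DTP. In DTEP 16 members were called higher than in DTP (8.13% of all genes tested) and 0 were called lower (7.02%). By the adjusted p alone, 32 members rose (35.7% of all genes) and 3 fell (32.6%). The median log2 change was 1.42 in the members and 0.08 in all genes tested. The DTEP libraries lay wholly above the DTP libraries in 33 members (34.5% of all genes) and wholly below them in 4 (32.8%). This comparison shares the DTP libraries with the previous one, so a low DTP value raises both changes.

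The largest fitted rises were those of EXO1, RAD54L, RAD51AP1, NEIL3, FANCI and BRCA2. EXO1 was at 128, 146 and 87.5 in DTEP, a log2 change of 5.37 ± 0.58 from DTP (adjusted p = 5.53e-06, limma). RAD54L was at 64.9, 73.8 and 47.7, a log2 change of 5.00 ± 0.55 (adjusted p = 6.96e-06), which placed all DTEP libraries above the Control range. RAD51AP1 was at 45.1, 72.7 and 54.7, a change of 4.40 ± 0.44 (adjusted p = 3.26e-06). EXO1, RAD54L and RAD51AP1 were thus above their Control level in most DTEP libraries. FANCI was at 212, 251 and 227, a change of 4.02 ± 0.33 (adjusted p = 6.1e-07), and BRCA2 was at 18.6, 33.0 and 39.8, a change of 3.82 ± 0.53 (adjusted p = 4.48e-05). BRCA2 varied by more than a factor of 2 among the DTEP libraries, whereas FANCI did not. NEIL3 was at 22.8, 33.0 and 15.9, and its fitted log2 change of 4.40 ± 0.25 (adjusted p = 4.37e-08) ranged from 4.15 to 7.32 over the alternative settings, since its DTP level rested on few reads.

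Of the 20 members called lower in DTP, 14 were called higher in DTEP. They were BARD1, BLM, BRCA1, BRCA2, CHEK1, EXO1, FANCD2, FANCI, NEIL3, POLQ, RAD51AP1, RAD54B, RAD54L and RMI2. Among all genes tested, 323 of the 538 called lower in DTP (60%) were called higher in DTEP. The other 6 members, EME1, FANCA, FANCB, PRKDC, RMI1 and XRCC2, were not called higher, and EME1 did not pass the adjusted p either. CHEK2 and TP53BP1 were called higher in DTEP without having been called lower in DTP. Of the 35 members that fell by the adjusted p, 30 also rose, against 62.3% of all genes that fell, and the 5 without such a rise were ATR, EME1, FANCC, FANCG and PMS2.

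The members that fell at this step were those that had risen or held in DTP. XPC was at 62.1, 48.5 and 62.9 in DTEP, a log2 change of -1.16 ± 0.12 from DTP (adjusted p = 5.77e-06, limma). ERCC1 was at 76.3, 63.7 and 76.1, a change of -0.65 ± 0.12 (adjusted p = 0.000421), and PARP2 was at 82.1, 80.3 and 68.9, a change of -0.49 ± 0.16 (adjusted p = 0.0157). In all 3 genes every DTEP library was below every DTP library. MUS81 was at 41.6, 44.9 and 41.8 and missed the threshold, with a change of -0.35 ± 0.15 (adjusted p = 0.0544).

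**Figure D3:**
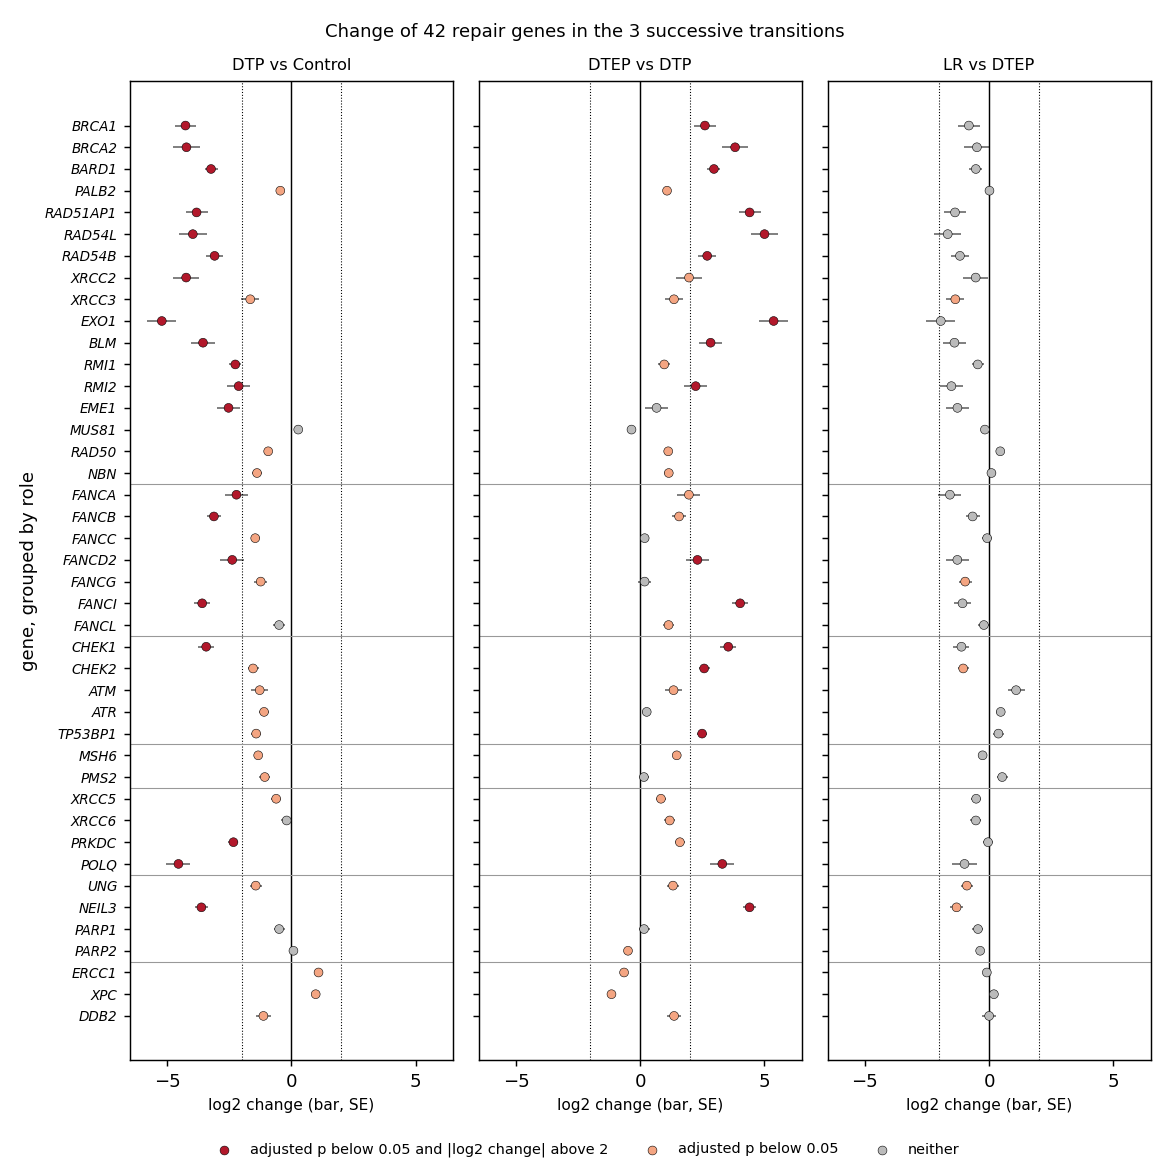
Fitted log2 change with its SE (x axis) of each of the 42 repair genes (y axis, grouped by role) in the 3 successive transitions; dotted lines mark an absolute log2 change of 2 and colour marks the call. Of the 42, 20 are called lower in DTP against Control, 16 are called higher in DTEP against DTP, and 0 are called in LR against DTEP.

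Set against Control, some members were lower in DTEP and others were higher. In DTEP against Control 1 member was called lower (6.20% of all genes tested) and 0 higher (4.43%). At the adjusted p alone 12 members were lower (28.7% of all genes) and 7 were higher (29.5%), and the median log2 change was -0.14 in the members and 0.02 in all genes. The called member was XRCC2, at 6.41, 14.6 and 17.2 in DTEP against a Control mean of 60.9 ± 1.26 (SD, n = 3), a log2 change of -2.27 ± 0.51 (adjusted p = 0.00234, limma). Without DTEP replicate 1, its lowest DTEP library, the change was -1.87 (adjusted p = 0.00993), past the adjusted p and short of the call.

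Other members below Control in DTEP by the adjusted p included EME1, BRCA1, FANCB, RMI1 and FANCC. EME1 was at 35.4, 41.8 and 46.4 in DTEP, a log2 change of -1.87 ± 0.47 from Control (adjusted p = 0.00457, limma). BRCA1 was at 30.5, 43.5 and 35.9, or 31.4% of Control, a change of -1.66 ± 0.43 (adjusted p = 0.00554). FANCB was at 4.35, 4.90 and 6.29, a change of -1.55 ± 0.29 (adjusted p = 0.000547). All their DTEP libraries lay between the DTP and the Control range. RMI1 and FANCC changed by -1.29 ± 0.24 (adjusted p = 0.000621) and -1.27 ± 0.19 (adjusted p = 0.000108), and FANCC was as low in DTEP, at 15.6, 13.3 and 13.3, as in DTP, at 11.6, 13.3 and 11.9.

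The members furthest above Control in DTEP by the adjusted p were TP53BP1, CHEK2 and XRCC6. Of the other checkpoint genes, ATR was below Control by the adjusted p, and ATM and CHEK1 did not pass. TP53BP1 was at 130, 205 and 250 in DTEP against 86.0, 89.3 and 91.3 in Control, a log2 change of 1.07 ± 0.21 (adjusted p = 0.000813, limma). CHEK2 was at 60.8, 59.4 and 38.7 against 23.8, 24.1 and 26.7, a change of 1.03 ± 0.22 (adjusted p = 0.00159). XRCC6 was at 1094, 965 and 519 against 404, 401 and 423, a change of 1.00 ± 0.22 (adjusted p = 0.00221). Their DTEP libraries were all above the Control range, with replicate 3 the highest for TP53BP1 and the lowest for the other two. NEIL3 and FANCL passed the adjusted p with changes of 0.78 ± 0.25 (adjusted p = 0.0193) and 0.65 ± 0.23 (adjusted p = 0.0295). Both missed it when certain single libraries were left out, and NEIL3 also with a constant of 0.1 in place of 1. RAD54L, at 212% of Control, had a change of 1.04 ± 0.55 that did not pass (adjusted p = 0.126). Without LR replicate 2, which enters here only through the pooled spread, the same change passed (adjusted p = 0.00182, limma). It also passed with only the 6 libraries compared (adjusted p = 0.00295).

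No member was called in LR against DTEP, where 0.457% of all genes tested were called lower and 0.225% higher. By the adjusted p alone 5 members were lower (4.31% of all genes) and 0 higher (3.04%). These were NEIL3 at a log2 change of -1.31 ± 0.25 (adjusted p = 0.0164, limma), CHEK2 at -1.04 ± 0.22 (adjusted p = 0.0224), XRCC3 at -1.36 ± 0.36 (adjusted p = 0.0442), UNG at -0.89 ± 0.24 (adjusted p = 0.0479) and FANCG at -0.96 ± 0.26 (adjusted p = 0.0486), named after their values were seen. The median log2 change was -0.53 in the members and -0.07 in all genes. The LR libraries lay wholly below DTEP in 14 members (13.4% of all genes) and wholly above in 3 (9.15%). This step rested on single libraries, because without LR replicate 2 the members lower by the adjusted p numbered 0, and without DTEP replicate 3 they numbered 20, with 5 higher.

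The members with the largest differences at this step had wide spreads. EXO1 was at 46.8, 7.53 and 71.6 in LR, a log2 change of -1.94 ± 0.58 from DTEP (adjusted p = 0.0566, limma). Without LR replicate 2 the change was -1.01 (adjusted p = 0.0567). RAD54L was at 26.8, 4.81 and 45.8 in LR, a change of -1.66 ± 0.55 (adjusted p = 0.0717). In both genes LR replicate 2 was several times lower than the other LR libraries, and every LR library was below every DTEP library. FANCA, RMI2, BLM and RAD51AP1 had changes of -1.57, -1.51, -1.39 and -1.37, none past the test (adjusted p = 0.0557, 0.0603, 0.0726 and 0.0687). Without LR replicate 2 the changes of RAD54L, FANCA, RMI2, BLM and RAD51AP1 were -0.78, -0.86, -0.79, -0.65 and -0.69, with adjusted p from 0.0899 for FANCA to 0.132 for RAD51AP1. Without DTEP replicate 3 these 5 genes and EXO1 all passed, from -1.39 for RAD51AP1 (adjusted p = 0.0408) to -2.15 for EXO1 (adjusted p = 0.018). In the other direction, ATM was at 41.0, 63.7 and 139 in DTEP and at 141, 150 and 170 in LR, a change of 1.09 ± 0.34 (adjusted p = 0.063). Only DTEP replicate 3 was near the LR level of ATM, and without it the change was 1.57 (adjusted p = 0.000321). PMS2, ATR, RAD50, TP53BP1 and XPC had changes of 0.53, 0.47, 0.45, 0.38 and 0.20, with adjusted p from 0.09 for RAD50 to 0.264 for XPC. Without DTEP replicate 3 the changes were 0.65, 0.57, 0.59, 0.58 and 0.26, and all but that of XPC (adjusted p = 0.0958) passed.

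Against Control, 7 members were called lower in LR (7.80% of all genes tested) and 0 higher (5.03%). By the adjusted p alone 21 members were lower (32.6% of all genes) and 5 higher (30.2%), and the median log2 change was -0.78 in the members and -0.03 in all genes. The LR libraries lay wholly below Control in 25 members (39.4% of all genes) and wholly above in 6 (37.6%). Without LR replicate 2 the members called lower numbered 2, EME1 and XRCC2. The median difference of the members from Control was -0.52, -1.55 and -0.29 in LR replicates 1, 2 and 3, in the same order as the proliferation marker sums of 1592, 1038 and 2386.

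EME1 was the lowest member in LR relative to Control. It was at 19.9, 5.31 and 38.9, a log2 change of -3.14 ± 0.47 (adjusted p = 9.94e-05, limma), and -2.41 (adjusted p = 7.73e-06) without LR replicate 2. XRCC2 was at 10.6, 2.32 and 16.9, a change of -2.81 ± 0.51 (adjusted p = 0.000477), and -2.10 (adjusted p = 0.00048) without that library. Every LR library of both genes was below every Control library. BRCA1 was at 27.8, 7.31 and 39.1, a change of -2.47 ± 0.43 (adjusted p = 0.000324), and -1.79 without LR replicate 2 (adjusted p = 1.97e-05). It was at 21.2% of Control with that library and at 28.7% without it. POLQ at -2.23 ± 0.48 (adjusted p = 0.00163), FANCB at -2.21 ± 0.29 (adjusted p = 2.94e-05) and BLM at -2.11 ± 0.46 (adjusted p = 0.00174) were also called, at 26.2%, 18.6% and 27.5% of Control. Without LR replicate 2 their changes were -1.45 (adjusted p = 0.000127), -1.84 (adjusted p = 2.98e-05) and -1.37 (adjusted p = 0.000119), past the adjusted p and short of the call. FANCG, at 75.6, 40.9 and 108 in LR against 283, 277 and 290 in Control, completed the 7.

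BRCA1 and BRCA2 ended at different levels relative to Control. BRCA2 was at 32.8, 5.98 and 40.8 in LR, 68.3% of Control, or 94.8% without LR replicate 2, and it did not pass the adjusted p against Control in DTEP or LR. Whether the change of BRCA1 differs from that of BRCA2 was not tested. BRCA1 lies at chr17:43044295-43170327, EME1 at chr17:50373229-50381483 and XRCC2 at chr7:152644776-152676141. The part of position in their levels was not tested.

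The 5 members past the adjusted p above Control in LR were TP53BP1, ATM, PALB2, RAD50 and ERCC1. TP53BP1 (chr15:43403061-43510640) was at 251, 216 and 272 in LR, 277% of Control, a log2 change of 1.45 ± 0.21 (adjusted p = 7.05e-05, limma). ATM (chr11:108223067-108369102) was at 71.9, 68.9 and 63.6 in Control and at 141, 150 and 170 in LR, a change of 1.16 ± 0.34 (adjusted p = 0.0104). In these genes LR replicate 2 lay with the other LR libraries, and the changes without it were 1.55 and 1.17. PALB2 was at 52.6, 52.6 and 63.5 in LR, a change of 0.65 ± 0.15 (adjusted p = 0.00268), and RAD50 was at 143, 157 and 168, a change of 0.65 ± 0.17 (adjusted p = 0.0051). ERCC1, at 128.7% of Control, was the fifth member past the adjusted p. XRCC6 and FANCL had changes of 0.47 ± 0.22 (adjusted p = 0.0857) and 0.44 ± 0.23 (adjusted p = 0.113), and FANCL passed without LR replicate 2, at 0.76 (adjusted p = 0.00177). XRCC6 passed without DTEP replicate 3, at an unchanged 0.47 (adjusted p = 0.00134, limma).

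Of the 21 members lower than Control in LR by the adjusted p, 14 were not called. RMI1, XRCC3, FANCA, RAD54B, FANCC and EXO1 were at 28.9%, 32.2%, 34.8%, 37.2%, 38.5% and 39.8% of Control, and at 31.8%, 39.7%, 47.5%, 48.4%, 43.5% and 56.1% without LR replicate 2. RMI2, FANCD2, UNG and BARD1 were at 45.7%, 49.6%, 52.5% and 60.1%, and at 62.2%, 68.1%, 62.6% and 72.7% without that library. Among the members that did not pass, RAD51AP1, FANCI and RAD54L were at 68.9%, 72.6% and 88.2% of Control, and at 93.0%, 93.1% and 124.1% without it. NBN, MSH6, XPC, CHEK2 and DDB2 were at 91.6%, 92.4%, 101.6%, 101.9% and 121.5% of Control. PRKDC was at 469, 491 and 575, or 58.7%, PARP1 at 58.9% and PARP2 at 59.8%, all past the adjusted p. PMS2, ATR, XRCC5 and MUS81 were between 75.7% and 84.9% of Control and did not pass. CHEK1 was at 34.1, 17.8 and 57.2, or 54.9% of Control, and 68.9% without LR replicate 2.

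**Figure D4:**
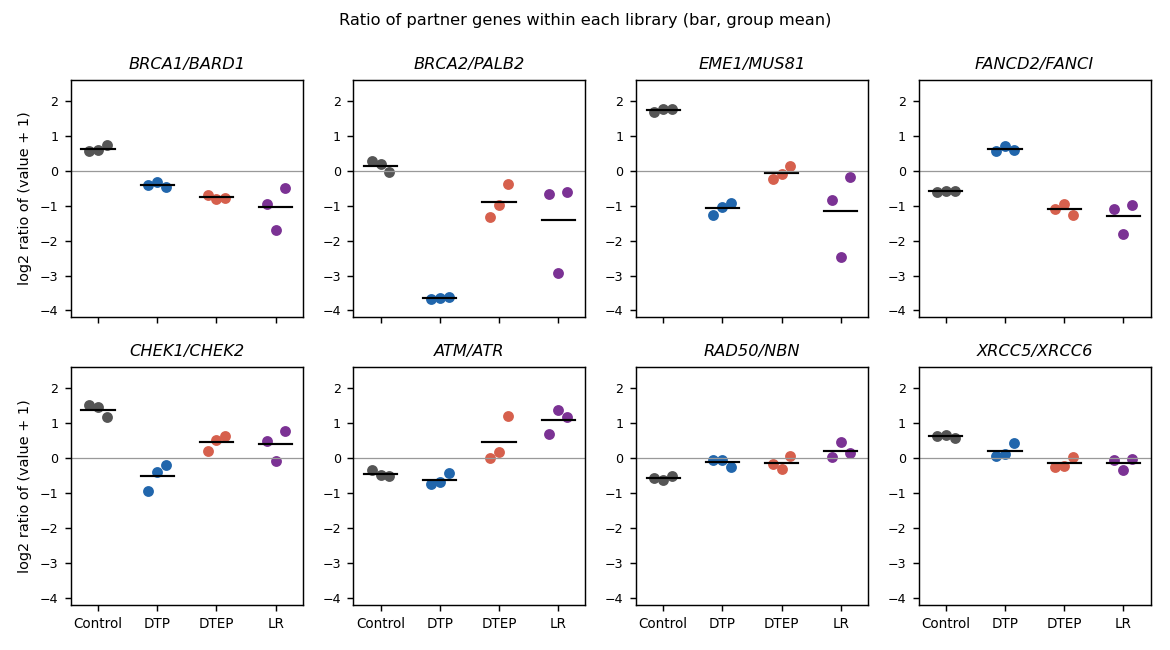
Log2 ratio of the levels of 8 pairs of partner genes within each library (y axis, value + 1) in the 4 groups (x axis); points are libraries and the bar is the group mean. BRCA2 relative to PALB2 goes from 0.13 in Control to -3.64 in DTP, and FANCD2 relative to FANCI moves upward, from -0.59 to 0.62.

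Genes whose products act as partners did not keep a fixed ratio. The ratio was taken within each library on the log2(value + 1) scale and compared between groups without a test. BRCA2 relative to PALB2 had a log2 ratio of 0.13 ± 0.17 (SD, n = 3) in Control and -3.64 ± 0.04 in DTP, then -0.90 ± 0.48 for DTEP and -1.41 ± 1.33 for LR. EME1 relative to MUS81 had a log2 ratio of 1.74 ± 0.05, -1.07 ± 0.17, -0.06 ± 0.19 and -1.17 ± 1.19 in the same order. Without LR replicate 2 the LR means of these pairs were -0.65 and -0.51. The DTP libraries of both pairs lay wholly below the Control and the DTEP libraries.

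Other pairs moved in their own ways. FANCD2 relative to FANCI had a log2 ratio of -0.59 ± 0.01 in Control and 0.62 ± 0.07 in DTP, then -1.10 ± 0.16 for DTEP and -1.31 ± 0.45 for LR, so the DTP libraries stood above all others. CHEK1 relative to CHEK2 was at 1.38 ± 0.19, -0.51 ± 0.39, 0.46 ± 0.22 and 0.39 ± 0.45. BRCA1 relative to BARD1 was at 0.63 ± 0.09 in Control and at -0.40 ± 0.08, -0.77 ± 0.05 and -1.05 ± 0.62 in DTP, DTEP and LR, below the Control range in every later library. Without LR replicate 2 the LR means of FANCD2/FANCI, CHEK1/CHEK2 and BRCA1/BARD1 were -1.05, 0.63 and -0.71. ATM relative to ATR was at -0.44 ± 0.09 in Control and 1.08 ± 0.35 in LR, with DTP overlapping Control at -0.62 ± 0.17. XRCC5 relative to XRCC6, the Ku pair, spanned group means of -0.15 to 0.62, and RAD50 relative to NBN spanned -0.57 to 0.21, the narrowest ranges beside PARP1 relative to PARP2 at 2.50 to 3.14.

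Several members share exons with a neighbour, and counting without strand cannot separate such reads. Whether the counting left them out or gave them to a member was not tested. Reads were counted on RefSeq models, which can differ from the annotation used for these overlaps. In the GENCODE annotation of hg38, 76.7% of the exon bases of XRCC3 overlap KLC1 and 28.8% of those of TP53BP1 overlap TUBGCP4, both on the opposite strand. TUBGCP4 was at 67.6 ± 0.31 (SD, n = 3) in Control, then 26.3 ± 3.69 in DTP, 86.1 ± 20.0 for DTEP and 110.1 ± 17.1 for LR, the same order of groups as TP53BP1. EME1 shares 16.4% of its exon bases with LRRC59, which was at 1562 ± 33.2, 733 ± 20.4, 363 ± 155 and 224 ± 42.4. The mean of LRRC59 was lower in each successive group, whereas EME1 was higher in DTEP than in DTP. ERCC1 shares 28.6% with POLR1G, which was at 43.0 ± 0.74 in Control and 27.7 ± 0.53 in DTP, the opposite direction to ERCC1. RAD54B shares 66% with FSBP, listed at 0 in every library, and 76.9% of RAD50 overlaps an unnamed gene model on the same strand. PMS2, CHEK2 and FANCD2 have near-identical pseudogene copies, so their counts are uncertain.

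A wider set of 105 other repair genes, grouped by the same pathways, was read beside the members. In DTP against Control 10 were called lower (3.90% of all genes tested) and 0 higher (1.01%), 46 were lower (28.8%) and 12 higher (25.2%) by the adjusted p alone, and the median log2 change was -0.41. The pathways differed in their medians, with -0.98 in recombination and break signalling, 0.15 in base excision and single-strand break repair (21 genes, 3 higher and 4 lower by the adjusted p) and 0.32 in end joining (6 genes, 3 higher and 1 lower). In DTEP against DTP 15 of the 105 were called higher (8.13%) and 1 lower (7.02%), with a median of 0.62. Among these, 9 of the 10 calls in DTP lay in recombination and break signalling (40 genes). BRIP1, a helicase partner of BRCA1, was at 80.3, 81.0 and 71.5 in Control and at 1.88, 2.32 and 2.48 in DTP, a log2 change of -4.61 ± 0.59 (adjusted p = 6.57e-05, limma). CLSPN, the adaptor through which ATR activates CHEK1, changed by -4.37 ± 0.57 (adjusted p = 7.69e-05). Both thus fell at the same step as the members.

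RAD51C, PARP3 and ALKBH3 did not follow that course. RAD51C, a recombination gene, was at 139, 141 and 140 in Control and at 91.9, 91.3 and 82.7 in DTP. It was at 33.1, 21.4 and 11.3 for DTEP and at 8.15, 5.53 and 9.50 for LR, a log2 change of -4.04 ± 0.30 in LR against Control (adjusted p = 2.52e-07, limma). PARP3, a polymerase of the PARP family that acts at breaks, was at 2.85, 3.10 and 2.79 in Control and at 28.7, 26.0 and 29.9 in LR, a change of 2.90 ± 0.16 (adjusted p = 2.16e-08). ALKBH3, which reverses alkyl damage, had 0 reads in all 6 Control and DTP libraries and 427 to 673 reads in the DTEP and LR libraries. Its late mean was at least 156-fold higher than the 3-read limit of the shallowest early library. RAD51C was thus lower in every successive group, though the difference between DTP and Control did not pass the test, and ALKBH3 is 1 of the 16 genes without a read in the early libraries. In LR against Control 4 of the 105 genes were called higher (5.03% of all genes tested) and 4 lower (7.80%), and in LR against DTEP 0 were called in either direction.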

How the data were processed

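The authors made stranded mRNA libraries (TruSeq), aligned reads to hg38 with Rsubread and counted them on RefSeq gene models at default settings, which ignore strand. The deposited table holds a normalised signal per gene and library, recomputed here as TMM-scaled CPM with edgeR 4.0.16, so that whole reads were recovered for 100% of the values above 0, none further than 1.2e-09 from an integer. The 3-read limits cover counting error only. Groups came from the sample titles. In R 4.3.3, limma 3.58.1 was fitted to log2(value + 1) of all 12 libraries without covariates, with a variance trend. Genes at 1 or more in at least 3 libraries were tested (13794 genes), two-sided, with Benjamini-Hochberg adjustment over all genes of each comparison, and a call required, as in the study, an adjusted p below 0.05 together with a log2 change beyond 2 in either direction. The constant of 1 understates changes of low genes. Members and gene lists were chosen with earlier results of these data known. In each comparison statistics were given for at most the 6 members with the largest positive and the 6 with the largest negative change, and for at most 2 called genes per direction of the other lists, with exceptions named where they occur. Scripts were tested on simulated data. Alternatives included edgeR and DESeq2 1.42.0 on the recovered reads, other constants, filters and scalings, a replicate block and leaving out each library. The values of 1 listed gene are not reported here.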

Additional observations from a re-analysis of the deposited data

How the results depend on the processing

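Of 56 changes named for single members, each recomputed under 23 alternatives, 38 kept their side of the adjusted p in all, 2 lost it in some (NEIL3 and FANCL in DTEP against Control), 16 gained it in some, and 0 reversed. At an absolute log2 change above 1, members called higher and lower numbered 1 and 32 in DTP against Control, 30 and 1 from DTP to DTEP, 0 and 3 from DTEP to LR, 2 and 8 in DTEP against Control, and 2 and 16 in LR against Control. Members called lower in LR against Control numbered 4 with edgeR and 4 with DESeq2, and 2 to 9 when single libraries were left out, with 2 without LR replicate 2. Members called lower in DTEP against Control numbered 0 to 1 and in LR against DTEP 0 to 3 when single libraries were left out. By the adjusted p alone, members lower in LR against DTEP numbered 5 as reported, 2 without a filter, 3 without a trend, 0 with only the 6 libraries compared, 3 with edgeR and 12 with DESeq2, and 0 to 20 when single libraries were left out. Leaving out LR replicate 1 or 2, or replicate 2 of DTEP, gave 0, leaving out replicate 1 of DTEP gave 1, leaving out its replicate 3 gave 20, and leaving out LR replicate 3 gave 18. The count was 2 when any 1 Control or DTP library was left out. Members higher by the adjusted p in LR against DTEP numbered 1 with DESeq2 and 0 to 5 when single libraries were left out. The cause of these shifts was not tested. Replicate numbers did not pair the libraries, since same-numbered libraries deviated together with correlations of -0.441 to 0.359, over 0.1 in 2 of 18 pairs. With a replicate block, 2 members were lower in LR against DTEP by the adjusted p, and the other counts of members stayed within 1.5 times the reported count. The spread over libraries, with a median SD of the members of 0.04 in Control and 0.46 in LR on the log2 scale, limits the late comparisons. Scaling by the median of ratios moved the median change of all genes by -0.10 from DTP to DTEP and by less in the other comparisons.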

Other observations

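Genes of the p53 response, which damage signalling is known to switch on, were also listed. Of 15 listed genes 14 were tested, and in DTP against Control 0 were called (1.01% of all genes tested higher and 3.90% lower), with 3 higher (25.2%) and 3 lower (28.8%) by the adjusted p (limma). In DTEP against DTP 1 was called higher (8.13%) and 3 lower (7.02%), and in LR against Control 2 were called higher (5.03%) and 1 lower (7.80%). PHLDA3, a repressor of AKT signalling, was at 20.6, 19.2 and 19.9 normalised read counts in Control and at 38.5, 30.6 and 21.8 in DTP. It was at 2.25, 1.73 and 0.06 for DTEP and at 0.08, 0.06 and 0 for LR, where each library had 0 to 2 reads. PHLDA3 was thus nearly absent from DTEP replicate 3 and from every LR library.

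FDXR, a mitochondrial reductase, was at 9.55, 8.19 and 4.66 in DTP and at 50.0, 52.0 and 49.9 in DTEP, a log2 change of 2.66 ± 0.24 (adjusted p = 1.37e-06, limma). BBC3, which encodes the death-promoting protein PUMA, was at 40.8, 28.9 and 20.7 in DTP and at 4.88, 2.97 and 2.13 in DTEP, a change of -2.85 ± 0.28 (adjusted p = 2.48e-06). FDXR was thus called higher and BBC3 lower at the same step, and the libraries of neither gene overlapped.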
